A study of Mus musculus with 6 samples.

Results

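Interferon-stimulated genes are the genes that cells switch on when they sense interferon, and 9 of them were followed here in mouse striatum: Irf7, Isg15, Usp18, Ifit1, Ifit3, Oasl2, Bst2, Gbp2 and Gbp3. The rows were found by gene symbol in a table of 45777 genes. All 9 were present, and all 9 were among the 17874 genes with enough counts to be tested. The striatum came from 6-week-old ICR offspring whose sires had been injected subcutaneously for 21 days, from 6 weeks of age, and then paired with untreated dams. In the methylphenidate-sired group the sires received methylphenidate at 15 mg/kg, and in the saline-sired group they received saline at 10 mL/kg. The labels describe treatment of the sires alone and list 2 females and 1 male among the offspring of each group. How many sires and litters they came from is not known here. Methylphenidate blocks the reuptake of dopamine and noradrenaline. The comparison asks whether the sire's treatment is followed by other transcript levels in the offspring's striatum.

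Interferons bind receptors on the cell surface, which activate JAK kinases and STAT factors. For type I interferon, STAT factors and Irf9 form the ISGF3 complex, which binds a DNA element called the interferon-stimulated response element (ISRE) in the promoters of the induced genes. Interferon gamma acts through STAT dimers at a different element, the gamma-activated site (GAS). In healthy brain the products of these genes are scarce, and microglia, endothelial cells, choroid plexus epithelium and other cells can all make them after exposure to interferon.

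The ISRE is shown because it is the sequence feature by which this gene class is usually recognised. Windows of RefSeq promoters (build GRCm38.p6, the assembly that mm10 names) are given 5′ to 3′ on the strand of the gene, with matches to the core GAAANNGAAA, read on either strand, in capitals.
Ifit1, chr19:34640765-34640833, plus strand: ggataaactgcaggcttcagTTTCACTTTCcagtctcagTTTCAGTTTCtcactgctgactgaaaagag
Ifit3, chr19:34583353-34583436, plus strand: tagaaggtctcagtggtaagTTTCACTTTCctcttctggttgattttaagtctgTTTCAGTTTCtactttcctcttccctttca
Isg15, chr4:156200855-156200916, minus strand: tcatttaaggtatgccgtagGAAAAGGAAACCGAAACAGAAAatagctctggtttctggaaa
Gbp2, chr3:142620584-142620633, plus strand: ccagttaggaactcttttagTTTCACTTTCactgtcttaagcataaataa
Gbp3, chr3:142559979-142560034, plus strand: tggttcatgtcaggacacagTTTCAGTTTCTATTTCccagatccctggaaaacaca
Bst2, chr8:71537567-71537622, minus strand: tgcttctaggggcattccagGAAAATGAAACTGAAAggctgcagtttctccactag

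Promoter windows of 300 bases (250 before and 50 after an annotated start) were found for 8 of the 9 genes, and 6 of those 8 genes held the core. Over all genes with such a window, 1079 of 27025 did (3.99%). The annotated start of a window need not be the first base of the gene range given below. The stretch printed for Ifit3 (34583353 to 34583436) lies inside that range, which begins at 34583119, and the one for Gbp3 ends inside its range. Ifit1, Ifit3 and Gbp2 carry the same 10 letters TTTCACTTTC, and Ifit1, Ifit3 and Gbp3 share TTTCAGTTTC. The matches overlap one another in Isg15, Gbp3 and Bst2. The GAS core TTCNNNGAA, which reads the same on both strands, was found in 1 of the 8 genes, Bst2, where it overlaps an ISRE match, against 9.55% of all genes. The windows of Irf7 and Oasl2 and a second window of Gbp3 held no ISRE core, which says only that these letters are not in those windows. A match is a description of sequence and not evidence of binding.

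Total counts lay between 31360042 and 38844724 in the 6 libraries. The libraries are called here by the animal numbers in the table, which are 2, 4 and 6 in the methylphenidate-sired and 3, 4 and 5 in the saline-sired group. These numbers do not tie a library to a labelled animal or sex. The libraries carried the markers of medium spiny neurons, the main striatal cell type, at a summed 6613 to 7358 CPM (counts per 1000000 counts of the library, with library sizes scaled by the TMM method) in the methylphenidate-sired and 7709 to 8373 CPM in the saline-sired group. The groups did not overlap in this sum. All 10 of these markers had negative fold changes (methylphenidate-sired over saline-sired, log2), with a median of -0.20, and none passed the test described below (edgeR). At an unadjusted p under 0.05 (edgeR) there were 7 of the 10, against 9.02% of all genes in either direction. Saline-sired library 3 stood apart in choroid plexus markers, at a summed 2160 CPM against 33.96 to 388 CPM in the other 5 libraries. Where fold changes of the 9 genes or of a list are reported, they are therefore also given without it. For the medium spiny neuron markers the median was then -0.25.

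The 9 interferon-stimulated genes were transcribed at low levels, and every one of them was highest in saline-sired library 3. Their summed level was 9.53, 8.17 and 11.8 CPM in methylphenidate-sired libraries 2, 4 and 6, against 31.7, 13.97 and 8.79 CPM in saline-sired libraries 3, 4 and 5. Saline-sired library 5 thus lay within the range of the methylphenidate-sired libraries. The fold changes (methylphenidate-sired over saline-sired, log2) were negative for 9 of 9 genes with a median of -1.11, while over all genes tested the median was -0.01 and 53.0% were negative. None of the 9 passed the test (adjusted p between 0.47 and 0.826, edgeR quasi-likelihood test with Benjamini-Hochberg adjustment over all genes), where 0.0224% of all genes passed. At an unadjusted p under 0.05 there was 1 gene, Gbp2, against 3.95% of all genes with such a p and a lower level in the methylphenidate-sired group. Without saline-sired library 3 the median was -0.20, with 6 genes negative and 3 positive. In whole tissue, fewer cells of a type and less RNA per cell cannot be told apart.

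**Figure D1:**
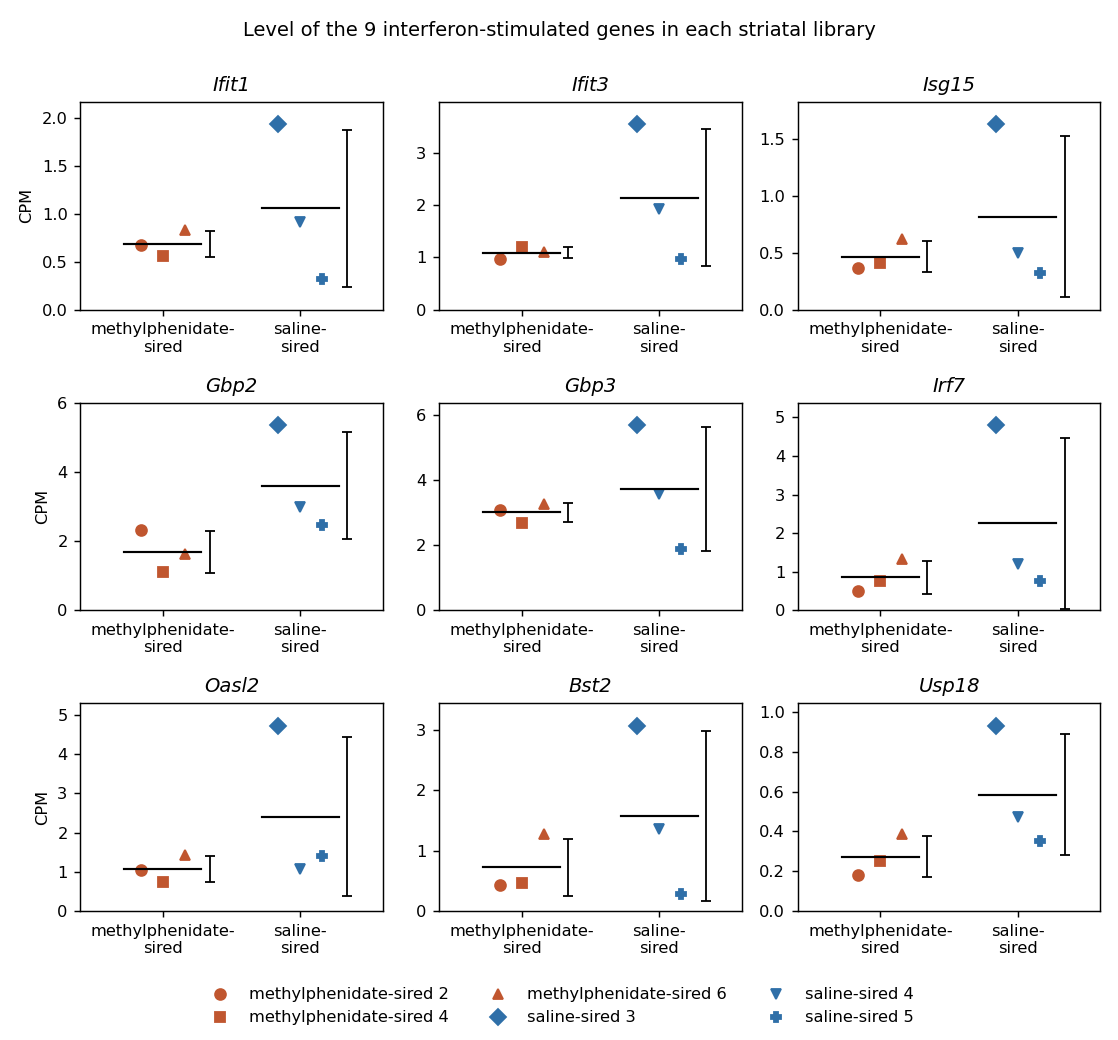
CPM of each of the 9 genes in every library, with methylphenidate-sired libraries in orange and saline-sired libraries in blue. Horizontal lines are group means and the bars beside them 1 SD (n = 3 each). Saline-sired library 3 is the highest point in all 9 panels, and the groups overlap in 8 of them.

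Irf7 is the transcription factor that amplifies type I interferon production after the first induction (Gene ID 54123, chromosome 7, 141263183 to 141266499). It was at 0.487, 0.751 and 1.33 CPM in methylphenidate-sired libraries 2, 4 and 6, against 4.81, 1.19 and 0.77 CPM in saline-sired libraries 3, 4 and 5. The single high value was that of saline-sired library 3, and the groups overlapped. The log2 fold change was -1.41 (SE 0.69, 95% interval -2.98 to 0.17, edgeR adjusted p = 0.591), the most negative of the 9, and it was -0.20 without saline-sired library 3. The group means were 0.857 ± 0.432 and 2.26 ± 2.22 CPM (SD, n = 3 each; methylphenidate-sired, then saline-sired).

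Isg15 encodes a ubiquitin-like protein that is attached to other proteins (Gene ID 100038882, chromosome 4, 156199424 to 156200818). It was at 0.365, 0.407 and 0.621 CPM in the methylphenidate-sired libraries, against 1.64, 0.502 and 0.321 CPM in the saline-sired ones, in the library order used for Irf7. Saline-sired library 5 was the lowest of all 6, so the methylphenidate-sired values lay inside the saline-sired range. The log2 fold change was -0.84 (SE 0.61, edgeR adjusted p = 0.721) and had the opposite sign, 0.17, without saline-sired library 3. Usp18 encodes the protease that removes Isg15 from its targets and also dampens signalling at the type I interferon receptor (Gene ID 24110, chromosome 6, 121245906 to 121270917). It rested on the fewest counts, with 6, 8 and 13 in the methylphenidate-sired libraries, against 37, 15 and 11 in the saline-sired ones. The overlap was narrow, as only methylphenidate-sired library 6 exceeded a saline-sired library. Its log2 fold change was -1.11 (SE 0.52, edgeR adjusted p = 0.581), and -0.59 without saline-sired library 3.

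Ifit1 encodes a tetratricopeptide protein that binds viral RNA with an incompletely methylated cap (Gene ID 15957, chromosome 19, 34640889 to 34650009). It was at 0.67, 0.563 and 0.828 CPM in methylphenidate-sired libraries 2, 4 and 6, against 1.94, 0.911 and 0.321 CPM in saline-sired libraries 3, 4 and 5. The methylphenidate-sired values lay inside the saline-sired range, and the log2 fold change was -0.63 (SE 0.57, edgeR adjusted p = 0.776), or 0.15 without saline-sired library 3. Ifit3, a related protein of the same family that is encoded 51906 bases away, was at 0.974, 1.19 and 1.09 CPM, against 3.55, 1.92 and 0.962 CPM (Gene ID 15959, chromosome 19, 34583119 to 34588982). The methylphenidate-sired libraries were close to one another and to saline-sired library 5. Its log2 fold change was -0.99 (SE 0.44, edgeR adjusted p = 0.56), and -0.41 without saline-sired library 3.

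The count of Ifit3 is uncertain, because the transcript of its neighbour Ifit3b matched it at 97.8% identity over 1700 bases. Ifit3b was at 0.944, 0.97 and 1.6 CPM in methylphenidate-sired libraries 2, 4 and 6, against 2.47, 2.42 and 2.25 CPM in saline-sired libraries 3, 4 and 5. In contrast to Ifit3, its 3 saline-sired values were close together and all above the methylphenidate-sired ones. Its log2 fold change was -1.02 (SE 0.27, edgeR adjusted p = 0.428), and -0.99 without saline-sired library 3. With the counts of both genes added, a choice made after seeing the data, the level was 1.92, 2.16 and 2.69 CPM in the methylphenidate-sired libraries, against 6.01, 4.33 and 3.21 CPM in the saline-sired ones. The groups no longer overlapped, where 7.01% of all genes tested did not overlap in this direction. The log2 fold change of the sum was -1.0 (SE 0.26, edgeR unadjusted p = 0.00488 and adjusted p = 0.427). For the sum, a value without saline-sired library 3 was not computed. For Isg15, the annotated transcript AC151275.1 was a copy of the same kind (95.2% identity over 482 bases) with no row of that name in the table. No other member had a copy at 95% identity or more over at least 200 bases.

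Oasl2 belongs to the oligoadenylate synthetase family, which senses double-stranded RNA (Gene ID 23962, chromosome 5, 114896926 to 114912245). It was at 1.03, 0.751 and 1.42 CPM in methylphenidate-sired libraries 2, 4 and 6, against 4.73, 1.07 and 1.41 CPM in saline-sired libraries 3, 4 and 5. Without saline-sired library 3 the remaining 5 values span less than a doubling, and the log2 fold change, -1.18 over all libraries (SE 0.56, edgeR adjusted p = 0.586), becomes -0.21. Bst2 encodes tetherin, a membrane protein that holds budding virus particles on the cell (Gene ID 69550, chromosome 8, 71534255 to 71537472). It was at 0.426, 0.469 and 1.27 CPM, against 3.07, 1.35 and 0.289 CPM. Of the 9 genes it had the widest ratio between the highest and the lowest library, as saline-sired library 3 was 10.6 times saline-sired library 5. These values rest on 122 counts in saline-sired library 3 and on 9 counts in saline-sired library 5, with exact 95% Poisson intervals from 101 to 146 and from 4.12 to 17.1. The log2 fold change of Bst2 was -1.13 (SE 0.75, edgeR adjusted p = 0.688), and -0.18 without saline-sired library 3.

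Gbp2 and Gbp3 encode guanylate-binding proteins, GTPases of defence inside the cell that respond strongly to interferon gamma, and lie 47449 bases apart on chromosome 3 (Gene IDs 14469 and 55932, 142620663 to 142638008 and 142560016 to 142573213). Gbp2 was at 2.31, 1.10 and 1.63 CPM in methylphenidate-sired libraries 2, 4 and 6, against 5.36, 2.98 and 2.47 CPM in saline-sired libraries 3, 4 and 5. It was the 1 gene of the 9 whose groups did not overlap, against 7.01% of all genes tested that were lower in every methylphenidate-sired library than in any saline-sired one. Its log2 fold change was -1.11 (SE 0.37, 95% interval -1.95 to -0.26, edgeR unadjusted p = 0.0161 and adjusted p = 0.47), with means of 1.68 ± 0.611 and 3.60 ± 1.54 CPM (SD, n = 3 each; methylphenidate-sired, then saline-sired). It was lower in 3 of 3 methylphenidate-sired libraries, and the log2 fold change was -0.70 without saline-sired library 3. Gbp3 was at 3.07, 2.69 and 3.25 CPM, against 5.69, 3.58 and 1.89 CPM. Its log2 fold change was -0.31 (SE 0.35, edgeR adjusted p = 0.826), the least negative of the 9, and 0.13 without saline-sired library 3, so the neighbouring genes of this pair differed in whether the groups overlapped.

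**Figure D2:**
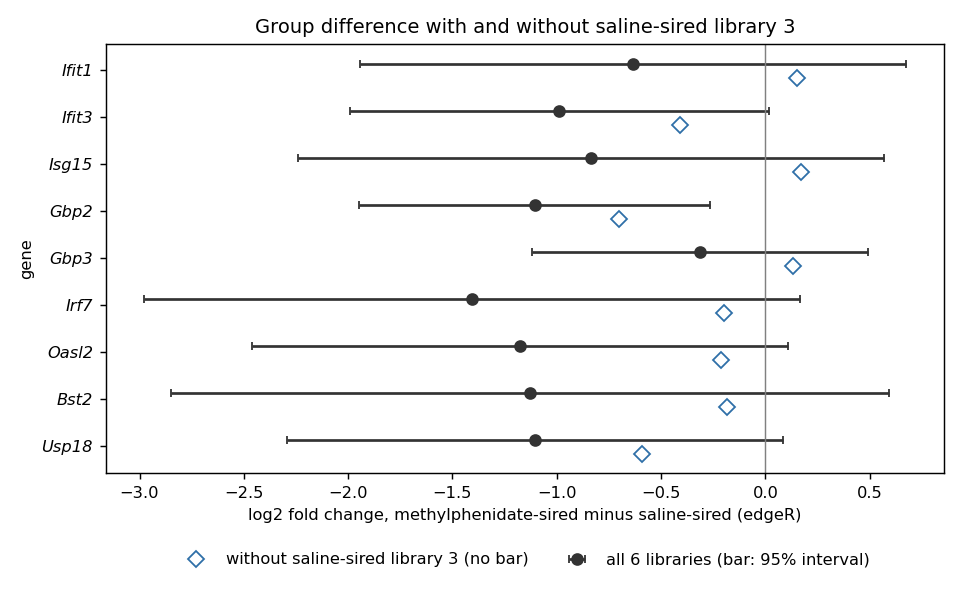
Log2 fold change (methylphenidate-sired minus saline-sired) of each gene from all 6 libraries, with 95% intervals, and without saline-sired library 3 (open diamonds). The interval of Gbp2 ends at -0.26 and the other 8 reach past 0, and without saline-sired library 3 every estimate lies nearer to 0, with Ifit1, Isg15 and Gbp3 above it.

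In 7 of the 9 genes the difference between the group means was smaller than the SD of the saline-sired group, with Gbp2 and Usp18 as the exceptions. The SD of the saline-sired group was the larger one in all 9. Saline-sired library 3 exceeded the next highest library by 1.59-fold (Gbp3) to 3.61-fold (Irf7). Of all genes tested, 19.7% were highest in this library, and 1.59% exceeded every other library there by at least 1.5-fold, as all 9 genes did. Among the other 5 libraries, saline-sired library 4 held the highest value in 6 genes and methylphenidate-sired library 6 in 3, and saline-sired library 5 was the lowest of all 6 libraries in 5. Within the methylphenidate-sired group, library 6 was the highest in 7 of 9 genes.

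DESeq2 and limma-voom also called 0 of the 9 genes. DESeq2 called 1.43% of the genes to which it gave an adjusted p. Only 1 of the 9 genes received one. At an unadjusted p under 0.05 DESeq2 had 4 of the 9, all with negative fold changes, against 2.45% of all genes with such a p and a negative fold change. limma-voom called 0.0224% of genes, and 1 of the 9 was negative at an unadjusted p under 0.05, against 3.89% of all genes.

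Per kilobase of exon, Bst2 had the highest level, a mean of 1.27 CPM per kb over the 6 libraries, followed by Gbp2 (1.05 CPM per kb), Gbp3 (1.03), Ifit3 (0.925) and Isg15 (0.849). Irf7 (0.412 CPM per kb), Ifit1 (0.328), Oasl2 (0.272) and Usp18 (0.154) were lower. The ranges over libraries overlapped between all 8 pairs of neighbours in this order, so the order is a description only. Exon lengths were unions over all annotated transcripts, and a transcript absent from striatum would lower the value of its gene. Short overlaps with genes on the opposite strand exist for Irf7 (45 bases of Phrf1), Usp18 (124 bases of Gm44148) and Gbp2 (24 bases of Mir6381), and reads from those stretches cannot be assigned without strand information.

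The genes varied together across libraries. The 36 pairs had Pearson correlations of log2 CPM between 0.59 (Gbp2 with Bst2) and 0.998 (Ifit1 with Gbp3), with a median of 0.853 over 6 libraries. All pairs share saline-sired library 3 as the highest point. Gbp2 took part in the 4 lowest correlations. Of 13782 other genes with a mean level of at least 1 on the log2 CPM scale, the 10 whose log2 CPM most closely followed the mean of the 9 genes over the 6 libraries included Col8a1 (Pearson r = 0.993), Tm9sf1 (0.991), Efemp2 (0.991), Actr5 (0.987), Rdh5 (0.986), Lzic (0.986), Ifi27 (0.982), Col8a2 (0.982) and Ncln (0.981). Their sizes of change were unlike, since Tm9sf1 in saline-sired library 3 was 1.16 times the median of the other libraries and Col8a2 was 8.48 times that median. A correlation above 0.9 was reached by 238 of the 13782 genes. Of the 9 genes themselves, only Gbp2 (1.45) and Gbp3 (1.79) reached the mean level of 1 asked of the others. Interferon-stimulated genes as low as the rest of the 9 could therefore not be listed. Col8a1, a short-chain collagen gene, was at 1.46, 1.28 and 1.86 CPM in methylphenidate-sired libraries 2, 4 and 6, against 10.1, 2.57 and 1.41 CPM in saline-sired libraries 3, 4 and 5.

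The interferons themselves were at or near 0. Of 12 interferon ligand genes looked up, 11 had 0 counts in every library, which allows up to 3 counts in each, and Ifne had 2 counts in saline-sired library 5. All 6 receptor genes were tested and none passed (edgeR; 2 at an unadjusted p under 0.05, which 9.02% of all genes had in either direction), with a median log2 fold change of 0.10, or 0.24 without saline-sired library 3. Of these 6 genes, 3 were highest in that library. Ifngr1 and Ifngr2, the chains of the interferon gamma receptor, had -0.24 (SE 0.09) and 0.37 (SE 0.14), both with an edgeR adjusted p of 0.491. Ifngr1 was highest in saline-sired library 3, as the 9 genes were, at 1.17 times the median of the others, and Ifngr2 was there at 0.794 times that median. Without that library their values were -0.22 and 0.33.

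Of 10 JAK-STAT and ISGF3 genes tested, 0 were highest in that library and 0 passed (edgeR; 2 at an unadjusted p under 0.05), with 5 positive and 5 negative fold changes and a median of -0.01, or -0.04 without saline-sired library 3. Irf9 in saline-sired library 3 was at 0.994 times the median of the other libraries, where Irf7 was at 6.24 times. The feedback inhibitors Socs3 and Socs1 had the lowest unadjusted p of the list, with positive log2 fold changes of 0.72 (SE 0.27, edgeR adjusted p = 0.491) and 0.84 (SE 0.35, edgeR adjusted p = 0.52) that were 0.74 and 0.84 without saline-sired library 3. Of 6 other interferon regulatory factors tested, 0 passed (edgeR; 1 at an unadjusted p under 0.05) and 2 were highest in saline-sired library 3, with Irf2 at 0.26 (SE 0.11) and Irf1 at -0.32 (SE 0.25). Without that library Irf2 was at 0.24 and Irf1 at -0.09. Of 14 sensors and adaptors of nucleic acid sensing, 0 passed (edgeR; 1 at an unadjusted p under 0.05) and 4 were highest in that library, with a median of -0.09, the adaptor gene Ticam1 at -0.33 (SE 0.14) and the receptor gene Tlr7 at 0.37 (SE 0.23). Without that library the median was -0.07, with Ticam1 at -0.34 and Tlr7 at 0.22.

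Among the enzymes that attach Isg15 to proteins, 0 of 5 passed (edgeR; 1 at an unadjusted p under 0.05) and 3 were highest in saline-sired library 3 (median -0.18, or -0.02 without that library). Uba7, the activating enzyme, differed by -0.97 on the log2 scale (SE 0.36, adjusted p = 0.491 by edgeR). It was at 0.822, 0.845 and 2.01 CPM in methylphenidate-sired libraries 2, 4 and 6, against 2.49, 2.35 and 2.41 CPM in saline-sired libraries 3, 4 and 5. These saline-sired values were close together, unlike those of Isg15, and without saline-sired library 3 the log2 fold change of Uba7 was -0.96. Herc6, the ligase of this pathway in mouse, had a positive value of 0.34 (SE 0.16, edgeR adjusted p = 0.572), or 0.41 without that library.

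A wider list of 51 interferon-stimulated genes had 38 tested, of which 0 passed (edgeR; 2 at an unadjusted p under 0.05). Fold changes were negative in 30 and positive in 8 (median -0.23), and 24 were highest in saline-sired library 3. Without that library 24 of 38 were negative and the median was -0.09. The 2 genes of lowest p were Ifit3b, given above, and Xaf1 at -0.81 (SE 0.28, adjusted p = 0.47 by edgeR), or -0.71 without saline-sired library 3. Some genes of this list were counted in a single library, such as Oasl1, the relative of Oasl2, with 16 counts in saline-sired library 3 and 0 in the other 5, each of which allows up to 3. Of 14 other guanylate-binding and immunity-related GTPase genes tested, 0 passed (edgeR; 1 at an unadjusted p under 0.05), 12 were negative and 10 were highest in saline-sired library 3 (median -0.35, or -0.10 without that library). Gbp5 had -0.63 (SE 0.27) and Irgm2 -0.60 (SE 0.34), or -0.43 and -0.33 without that library. Of 17 genes of MHC class I presentation and the immunoproteasome, 0 passed (edgeR; 0 at an unadjusted p under 0.05), 13 were negative and 10 were highest in saline-sired library 3 (median -0.12). Without that library 8 of the 17 were negative and the median was 0.0022. The immunoproteasome subunit gene Psmb8 had -0.83 (SE 0.41) and the peptidase gene Erap1 -0.29 (SE 0.14), or -0.45 and -0.26 without that library. Of 9 inflammatory genes of the NF-kB pathway tested, 0 passed (edgeR; 1 at an unadjusted p under 0.05) and 3 were highest in that library (median -0.15, or -0.10 without that library), with the adhesion gene Icam1 at -0.65 (SE 0.27) and Ptgs2, which encodes a cyclooxygenase, at 0.51 (SE 0.26), or -0.60 and 0.46 without that library.

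**Figure D3:**
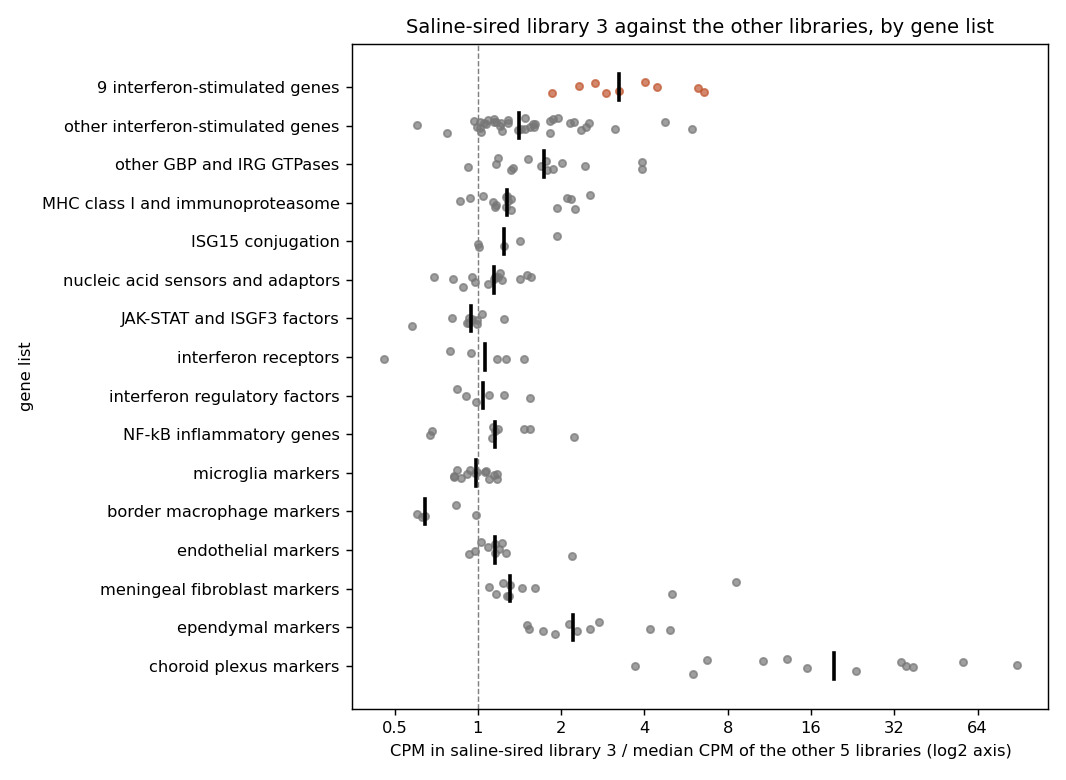
CPM in saline-sired library 3 divided by the median of the other 5 libraries, 1 point per tested gene, on a log2 axis, with the median of each list as a black bar. The 9 genes lie between 1.85 and 6.54 with a median of 3.24, the JAK-STAT and ISGF3 genes have a median of 0.941, the microglia markers 0.986, the ependymal markers 2.21 and the choroid plexus markers 19.4.

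Markers of other cell types moved with saline-sired library 3 to unlike degrees. Choroid plexus markers summed to 40.2, 92.1 and 60.2 CPM in methylphenidate-sired libraries 2, 4 and 6, against 2160, 388 and 33.96 CPM in saline-sired libraries 3, 4 and 5. All 12 tested were highest in saline-sired library 3. Its most abundant marker Ttr, which encodes transthyretin, was at 14.7, 61.3 and 33.6 CPM, against 1905, 306 and 9.88 CPM. The order of the libraries in these markers was not that of the 9 genes throughout, because methylphenidate-sired library 6 was above methylphenidate-sired library 4 in the sum of the 9 genes and below it in choroid plexus markers. Sostdc1 and Aqp1, the markers of lowest p, had log2 fold changes of -3.63 (SE 1.09) and -3.31 (SE 0.99), both with an edgeR adjusted p of 0.452, and -2.02 and -1.54 without saline-sired library 3. None of the 12 passed, and 11 had an unadjusted p under 0.05 (edgeR), against 9.02% of all genes in either direction. Their median log2 fold change was -3.07, or -1.48 without that library.

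Ependymal markers, from the cells that line the ventricles, summed to 55.1, 44.1 and 48.3 CPM in the methylphenidate-sired libraries, against 83.8, 62.5 and 41.4 CPM in the saline-sired ones, and 10 of 10 were highest in saline-sired library 3. Of these, 3 had an unadjusted p under 0.05 (edgeR), against 9.02% of all genes in either direction. The median log2 fold change was -0.59, or -0.13 without that library. Meningeal fibroblast markers summed to 70.3, 52.4 and 57.0 CPM, against 184, 100.4 and 51.1 CPM, and 4 of 10 were highest there. Again 3 of the 10 had an unadjusted p under 0.05, and the median was -0.25, or -0.20 without that library. Igf2 was the most abundant of them, at 30.3, 24.2 and 26.3 CPM, against 133, 53.9 and 21.2 CPM. In each of these lists saline-sired libraries 3 and 4 held the highest sums, as in the 9 genes. In saline-sired library 3, Igf2 alone gave 133 of the 184 CPM of the meningeal sum. Single meningeal markers differed in order, with Dcn highest in saline-sired library 4 and Col1a1 and Col1a2 in methylphenidate-sired library 2. The part of these tissues in the levels of the 9 genes was not tested.

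Markers of microglia and border macrophages, which are immune cells, did not show the same order. Microglia markers summed to 425, 473 and 424 CPM in the methylphenidate-sired libraries, against 434, 493 and 426 CPM in the saline-sired ones, and 2 of 14 were highest in saline-sired library 3. Border macrophage markers had their lowest sum in saline-sired library 3, 4.86 CPM, against 5.20 to 9.20 CPM in the other 5, and 0 of the 5 tested were highest there. Endothelial markers summed to 210 to 274 CPM in the methylphenidate-sired and 221 to 267 CPM in the saline-sired group, and 4 of 10 were highest in saline-sired library 3. Relative to the median of the other 5 libraries, the median of the list was 1.15 there. Flt1, the most abundant, was at 0.932 times that median. Ly6a stood above the list at 2.18 times, with 18.2 CPM against 6.64 to 12.1 CPM in the other 5. Of 13 lymphocyte and neutrophil markers, 6 had 0 counts in every library, Cd3e among them. Only 2 of the 13 were tested, Cd4 at 69.2 to 86.4 CPM and Ptprc at 2.04 to 3.32 CPM, and 0 were highest in saline-sired library 3. The T cell marker Cd3d had 3 counts in saline-sired library 3 and 0 elsewhere. With Cd3e at 0 as well, the level of Cd4 cannot be taken as a measure of T cells here. The markers of blood summed to 110, 160 and 49.2 CPM in the methylphenidate-sired libraries, against 184, 186 and 98.01 CPM in the saline-sired ones. Astrocyte markers summed to 4225 to 4626 CPM in the methylphenidate-sired and 3903 to 4549 CPM in the saline-sired group. None of the markers tested in these lists passed the test. The part of these cell types in the levels of the 9 genes was not tested.

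Markers of cortical excitatory neurons ran the other way, with 855, 885 and 986 CPM in the methylphenidate-sired libraries, against 522, 270 and 709 CPM in the saline-sired ones, and 0 of 10 were highest in saline-sired library 3. All 10 had positive fold changes, with a median of 0.89, or 0.94 without saline-sired library 3. By edgeR 0 passed and 8 had an unadjusted p under 0.05, against 9.02% of all genes in either direction. The groups did not overlap in this sum. The part of cortical tissue in the levels of the 9 genes was not tested.

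**Figure D4:**
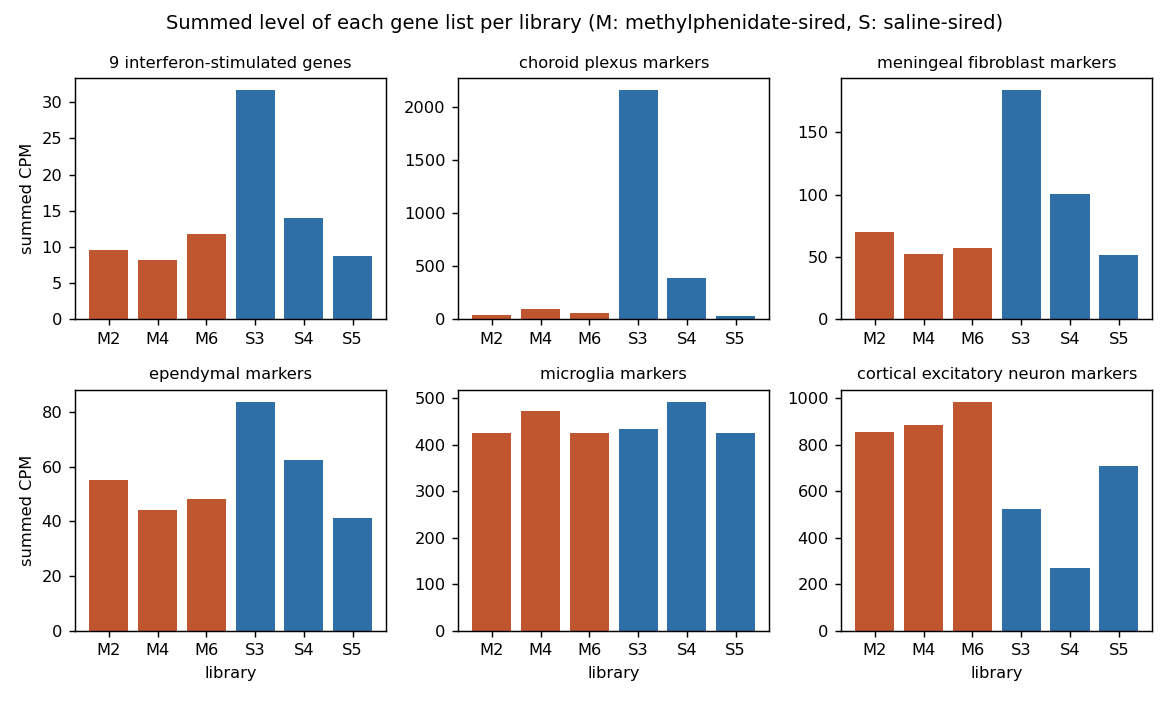
Summed CPM of the 9 interferon-stimulated genes and of 5 marker lists in methylphenidate-sired libraries (M, orange) and saline-sired libraries (S, blue), each panel starting at 0. The 9 genes sum to 31.7 CPM in saline-sired library 3 and to at most 13.97 CPM elsewhere; choroid plexus markers show the same highest library, while microglia markers lie between 424 and 493 CPM throughout.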

How the data were processed

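RNA-seq was made from the striatum of 6 offspring, 3 methylphenidate-sired and 3 saline-sired. Per the submitters' processing notes, bcl2fastq 2.20.0, Trimmomatic, HISAT2 2.1.0 and StringTie 2.1.3b were used with mm10. Settings, strandedness and the handling of multiply matching reads: not given in the sources used here. Counts deposited by the authors are whole-number read counts per RefSeq gene, not normalized. The column names give a group and an animal number that match no single label, so columns were tied to groups only. Whether animals of a group share a sire or litter is not given, and the p-values reflect no more than the spread among these samples, which may be technical or familial. A further 12 columns of per-sample values were not used.

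Counts were tested with edgeR 4.0.16 (R 4.3.3; quasi-likelihood F test, TMM, filterByExpr with its minimum count of 10, Benjamini-Hochberg over 17874 genes, threshold 0.05). Each SE is the size of the fold change over the square root of F. Alternatives were DESeq2 1.42.0, limma-voom (limma 3.58.1), other scalings, no filter and each library left out. The scripts were tested on simulated data. Poisson intervals and the limit of 3 counts for a count of 0 cover counting error only and take counts as independent reads. In the count columns the value 1 occurred 3839 times and the value 2 occurred 4818 times. The counts may therefore not be independent reads, and the intervals may be too narrow. Likeness of pattern used log2(CPM + 0.5). Copies were sought with blastn 2.17.0 (expectation limit 1e-20) in GENCODE vM21 transcripts, which also gave exon lengths. Promoters and coordinates are RefSeq's for GRCm38.p6. Genes named were the 9 members and the 10 most alike, and, from each list, those that passed or, with none, the 2 with the smallest p, plus the most abundant marker of a cell list (not every such gene is reported here); Irf9, Oasl1 and Cd3e were added after their values were seen. The members and lists were chosen with earlier results of these data known.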

Additional observations from a re-analysis of the deposited data

How the results depend on the processing

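None of the 9 genes passed the test under any of the 11 alternatives run on all of them, although DESeq2 gave an adjusted p to only 1 of them. The median log2 fold change of the 9 genes was -1.11 with all libraries and lay between -1.32 and -0.20 when libraries were left out (the ends omit libraries 5 and 3 of the saline-sired group), and between -1.13 and -0.84 under the other scalings, tools and filter. With libraries left out, Ifit1 ranged from -1.04 to 0.15, Isg15 from -1.19 to 0.17 and Gbp3 from -0.61 to 0.13. The positive ends are the values without saline-sired library 3, and the cause was not tested. The number of genes whose groups did not overlap was 1 with all libraries and 1 to 6 with a library left out, being 4 when methylphenidate-sired library 6 was omitted and 6 when saline-sired library 5 was, where fewer values are compared and 11.4% and 14.6% of all genes did not overlap in the same direction (7.01% with all libraries). Over all genes, 4 passed with edgeR, 183 with DESeq2, and 1 to 4 with a library left out, with 1 without methylphenidate-sired library 6. The lowest adjusted p of any of the 9 genes was 0.156, without saline-sired library 5. In that setting 8 of the 9 were negative at an unadjusted p under 0.05 (edgeR), against 977 of 18295 genes. The same count was 3 of 9 without saline-sired library 4 (585 of 18250 genes) and 0 of 9 without saline-sired library 3 (542 of 18187 genes). It was 0 or 1 with a methylphenidate-sired library left out. No paired analysis was possible because the animal numbers in the table are not the replicate numbers of the labels. Low counts limit what can be seen, with 6 to 37 counts per library in Usp18 and 10 to 65 in Isg15.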
